A study of Homo sapiens with 29 samples.

Results

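The genes described here are the 172 human genes named ZNF and a number that were expressed in HepG2 cells, a line from a human liver tumour, treated or not with CCL, which the series title gives as the herb Cratoxylum cochinchinense Lour. A gene was counted as expressed when its log2 value on the array was above 5 on at least 2 of 29 arrays. The array's probe table names 436 such genes on 453 probe sets, and 264 of them lay below this level. The 172 genes are part of the 6529 named genes that passed the same filter. The members were thus chosen by their measured level on these arrays, and these levels are given as a description with no test. The genes nearest above the filter were ZNF784 and ZNF639, each with a second highest array at 5.01, and ZNF561 at 5.03. The nearest below were ZNF124 at 4.98, ZNF45 at 4.97 and ZNF641 at 4.96. Of the 172 genes, 47 were above 5 on all 29 arrays.

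ZNF is the symbol given to human genes for zinc finger proteins. Most of them encode strings of C2H2 fingers, short folds held by a zinc ion between a pair of cysteines and a pair of histidines, which read bases of DNA and sometimes RNA. The largest branch carries a KRAB domain in front of the fingers, which binds the corepressor TRIM28. TRIM28 brings in histone methyltransferases, HP1 proteins and histone deacetylases, and many of these repressors silence transposable elements. Genes of this branch arose by repeated duplication and lie side by side in clusters, most of all on chromosome 19. Other proteins with a ZNF symbol activate promoters, tag proteins with ubiquitin or SUMO, or work on ribosomes and RNA, and the symbol therefore marks a structure rather than a shared task.

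RNA of the cells was read on Affymetrix gene arrays after biotin labelling. CCL-treated cells were harvested at 6, 12 and 18 h (3 arrays each) and at 24 and 48 h (2 arrays each), and untreated cells at 0 h (2 arrays), 6, 12, 24 and 48 h (3 arrays each) and 18 h (2 arrays). Arrays carry a set number from 1 to 3, and neither a dose nor a vehicle of CCL is given. The untreated cells therefore control for time in culture but not for a solvent. Nothing in the labels states that the arrays of 1 group stem from different cultures, and the spread behind the p-values may therefore be technical.

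The arrays differed in scale. Their medians over all 53617 probe sets ran from 2.29 (untreated 18 h, set 1) to 3.39 (CCL 18 h, set 3), and the median difference of the 6529 genes between CCL-treated and untreated cells was 0.41 at 18 h and -0.26 at 48 h on the log2 scale. Every result below is therefore given for the deposited values and, where it differs, after quantile normalization of all arrays, which brought these medians to 0.00 and -0.05. Array counts of 2 or 3 a group limit the precision. ALB, the albumin gene and a defining hepatocyte marker, lay between 11.7 and 12.1 on all 29 arrays. All 9 hepatocyte markers with a named probe set were above 5 on every array. Over the 5 times 8 of these 9 lay below 0 with CCL and 3 had an adjusted p under 0.05 (limma), namely FGG at -0.62, TTR at -0.43 and APOA1 at -0.39. The calls of APOA1 and TTR were lost without any 1 of 16 arrays and without 1 array, at adjusted p-values up to 0.104 and 0.0605. Their part in the results below was not tested. Of the leukocyte, fibroblast and endothelial markers with a named probe set, LYZ (lysozyme) lay at 10.3 or higher on all arrays, and the others stayed at or below 4.72. In such bulk RNA, fewer cells of a kind and less RNA per cell cannot be told apart.

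Promoter sequence is shown first for 4 of the genes whose values follow, a pair that rose with CCL (ZNF860 and ZNF697) and a pair that fell (ZNF551 and ZNF326). They were chosen after their values were known and because RefSeq's table of GRCh38.p14 promoters holds them. The promoters of ZNF598, which rose, and ZNF614, which fell, were read as well and are not shown. Each stretch is the 250 bases before the gene's start, 5′ to 3′ on the gene's strand. Capitals mark GGGCGG or its reverse complement CCGCCC, the letters read by SP and KLF factors, and CCAAT or its reverse complement, the letters read by NF-Y.
ZNF860 (chr3:31981500-31981749, plus strand): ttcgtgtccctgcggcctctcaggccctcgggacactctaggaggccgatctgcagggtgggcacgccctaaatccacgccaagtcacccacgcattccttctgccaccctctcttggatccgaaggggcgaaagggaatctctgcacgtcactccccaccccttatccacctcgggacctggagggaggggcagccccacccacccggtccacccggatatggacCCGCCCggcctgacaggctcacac
ZNF697 (chr1:119648267-119648516, minus strand): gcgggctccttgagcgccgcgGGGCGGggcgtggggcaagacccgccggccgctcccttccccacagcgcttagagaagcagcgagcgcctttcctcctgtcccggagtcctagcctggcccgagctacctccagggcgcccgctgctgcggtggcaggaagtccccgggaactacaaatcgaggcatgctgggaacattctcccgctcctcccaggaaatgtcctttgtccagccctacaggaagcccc
ZNF551 (chr19:57681727-57681976, plus strand): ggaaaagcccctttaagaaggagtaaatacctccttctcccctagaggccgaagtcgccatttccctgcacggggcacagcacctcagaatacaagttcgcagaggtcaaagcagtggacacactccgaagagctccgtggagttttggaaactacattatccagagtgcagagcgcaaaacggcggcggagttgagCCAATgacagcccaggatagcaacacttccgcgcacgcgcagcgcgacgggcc
ZNF326 (chr1:89994860-89995109, plus strand): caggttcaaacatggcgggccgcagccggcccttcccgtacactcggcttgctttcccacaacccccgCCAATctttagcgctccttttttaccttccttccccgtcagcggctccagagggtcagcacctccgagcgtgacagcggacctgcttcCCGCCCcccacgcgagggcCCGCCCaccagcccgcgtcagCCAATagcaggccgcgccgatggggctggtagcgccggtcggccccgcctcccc
ZNF860 and ZNF697 each hold 1 match to GGGCGG and none to CCAAT. ZNF551 holds 1 match to CCAAT and none to GGGCGG, and ZNF326 holds 2 of each. Of those not shown, ZNF598 holds 2 matches to GGGCGG and none to CCAAT, and ZNF614 holds none to either. A difference in motifs by direction was not tested. The table holds 153 of the 172 genes. On either strand, CCGGAAG, the letters of ETS factors, was in 32% of these 153 promoters, against 17.6% of the 5261 promoters of all genes tested and 8.82% of all 27305 promoters in the table. GGGCGG was in 71.2%, 70.4% and 42.3%, and CCAAT in 43.1%, 35.9% and 33%. TGACGTCA, the CRE letters, was in 6.54%, 3.25% and 1.77%, TGANTCA, the AP-1 letters, in 3.92%, 3.06% and 6.6%, and TATAAA in 2.61%, 4.68% and 11.1%. Among the ZNF genes themselves, CCGGAAG was in 10 of 24 promoters of genes that fell over the 5 times (defined next). It was in 4 of 13 of those that rose and in 35 of 116 of those not called. CCAAT was in 13 of the 24, 4 of the 13 and 49 of the 116, and GGGCGG in 14, 10 and 85 of them. These are shares of letters in a fixed window, and matches of different motifs may overlap at their edges.

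To ask which ZNF genes moved with CCL over the whole course, the 5 differences between CCL-treated and untreated cells were averaged for each gene. A gene is said to have risen, fallen or been called where its adjusted p (limma, Benjamini-Hochberg over 6529 genes) was under 0.05. Over the 5 times 19 ZNF genes rose and 28 fell, 47 of 172 in all (27.3%), against 24.6% of all genes tested, of which 13.6% rose and 11% fell. The share called was thus near that of all genes. The median ZNF gene lay at -0.09, against 0.01 for all genes. After quantile normalization the same 47 genes were called among 68 (23 higher, 45 lower), against 35.4% of all genes (16.5% higher, 18.9% lower). Some genes passed the level filter through 1 arm only. Of 20 ZNF genes with fewer than 2 untreated arrays above 5, 5 were among the 19 that rose (ZNF165, ZNF251, ZNF697, ZNF710 and ZNF860). Of 16 with fewer than 2 CCL arrays above 5, 5 were among the 28 that fell (ZNF43, ZNF92, ZNF117, ZNF253 and ZNF551). For those genes the filter itself favours a difference, and no count over the genes is offered as support.

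**Figure D1:**
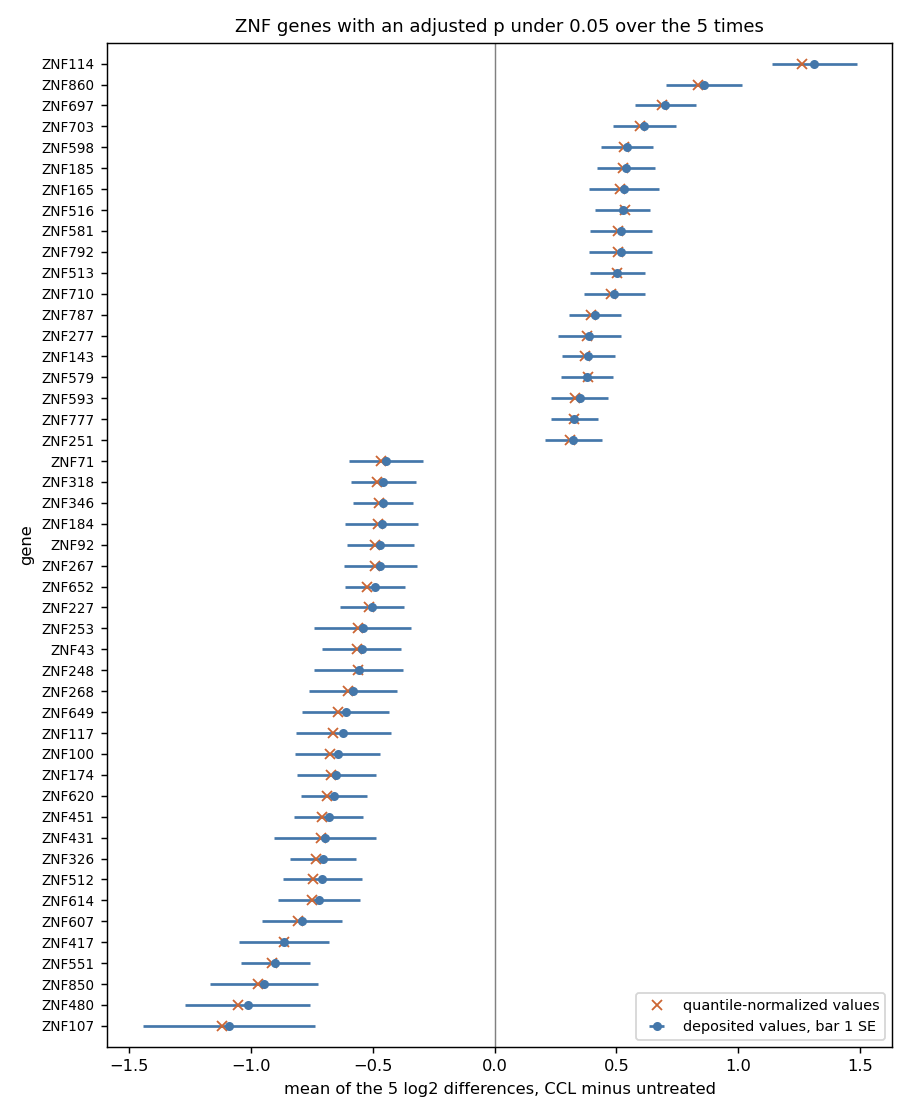
Mean of the 5 log2 differences, CCL minus untreated (horizontal axis), for the 47 ZNF genes called over the 5 times, 1 gene a line; circles are deposited values with bars of 1 standard error, and crosses are quantile-normalized values. ZNF114 stands highest at 1.31 and ZNF107 lowest at -1.09 with the widest bar, and crosses lie within the bars.

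ZNF114, a KRAB zinc finger gene of chromosome 19 (gene ID 163071), had the largest rise. Its log2 values ran from 7.41 through a median of 8.83 to 9.65 on the 13 CCL arrays, and from 6.28 through 7.49 to 8.50 on the 14 untreated arrays of the same times. The lowest CCL array, set 3 at 6 h, lay below the untreated median, so the arms overlapped when times were pooled. The mean difference was 1.31 ± 0.17 (SE), which is 2.48-fold, with an adjusted p of 3.68e-06. The difference was above 0 at every time, at 0.91, 1.20, 1.67, 1.92 and 0.86 from 6 to 48 h.

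ZNF860, on chromosome 3 (gene ID 344787), followed at 0.86 ± 0.16 (SE, adjusted p = 0.00021). Its CCL arrays ran from 3.89 through 4.28 to 5.95 and its untreated arrays from 2.86 through 3.79 to 4.14. It was above 5 on 2 CCL arrays and on no untreated one, and thus entered the set through the treated cells. Its largest differences were 1.58 at 18 h and 1.49 at 24 h, with 0.27 at 6 h and 0.21 at 48 h.

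The next 6 genes rose by 0.53 to 0.70. ZNF697, on chromosome 1, rose by 0.70 ± 0.13 (SE). It lay at 4.30, 4.98 and 5.85 (lowest, median, highest) with CCL and at 3.48, 4.35 and 5.05 without. It was above 5 on 5 CCL arrays and on 1 untreated array, and thus entered the set through the treated cells. ZNF703, which encodes a transcriptional corepressor amplified in some breast cancers, lay at 5.70, 6.18 and 6.95 with CCL and at 4.89, 5.66 and 6.18 without. In both genes the median of the CCL arrays lay near the highest untreated array. ZNF598, a ubiquitin ligase that marks collided ribosomes, lay at 5.38, 5.95 and 6.42 against 4.78, 5.41 and 5.93, and rose by 0.54 ± 0.11 (SE, adjusted p = 0.000483). ZNF185, which encodes a LIM-domain protein of the actin cytoskeleton despite its symbol, rose by 0.54. ZNF516, an activator of brown fat genes, rose by 0.53. ZNF165, a SCAN-domain gene known as a testis antigen in tumours, also rose by 0.53, from untreated arrays of the same times that never passed 4.27. Its other probe set gave 0.21. The calls of ZNF185 and ZNF165 were lost when only the 6, 12 and 24 h differences were averaged, at adjusted p-values of 0.114 and 0.288.

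ZNF551, on chromosome 19 (gene ID 90233), had the smallest p of those that fell. Its log2 values were 2.75, 4.27 and 4.89 with CCL and 4.66, 5.06 and 5.30 without, so most CCL arrays lay below all untreated ones. The mean difference was -0.90 ± 0.14 (SE), with an adjusted p of 3.65e-05. It was below 0 at every time. No CCL array passed 5, so this gene entered the set through the untreated cells, and its other probe set, which is dim, gave -0.03.

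ZNF480, a KRAB gene of chromosome 19 (gene ID 147657), fell by 1.01 on the log2 scale (SE 0.26, adjusted p = 0.00502). It lay at 2.98, 5.44 and 6.14 with CCL and at 5.04, 6.36 and 7.17 without, and the arms overlapped. ZNF850 fell by 0.95 (SE 0.22), from 4.77, 6.32 and 6.90 without CCL to 3.22, 5.35 and 6.22 with it. ZNF417, a KRAB repressor of endogenous retroviruses, fell by 0.86 (SE 0.18), from 4.04, 5.61 and 6.13 to 3.68, 4.82 and 5.45. ZNF417 has a near-identical neighbour, ZNF587, and the array may not keep their signals apart.

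ZNF107, on chromosome 7, had the lowest mean, at -1.09, and the largest error, at 0.35. Its arrays spanned 2.24 to 5.74 with CCL and 2.86 to 6.27 without. Its call was lost without any 1 of untreated 18 h set 3 (adjusted p = 0.085), CCL 24 h set 1 (0.108) or CCL 48 h set 1 (0.102). ZNF607 fell by 0.79, ZNF614 by 0.72 and ZNF512, a nuclear protein of heterochromatin, by 0.71. CCL 48 h set 1 was the lowest CCL array for each of the 8 genes with the lowest means. Without that array the mean of ZNF480, for example, was -0.70, and without the other CCL array of 48 h it was -1.33. Of the 47 calls, 31 (16 higher, 15 lower) held whichever single array was left out. The most easily lost were ZNF253 and ZNF251, without any 1 of 20 and of 19 arrays. When only the 6, 12 and 24 h differences were averaged, a choice made after seeing the data, 27 genes were called, 8 higher and 19 lower and all among the 47, against 11.4% of all genes.

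**Figure D2:**
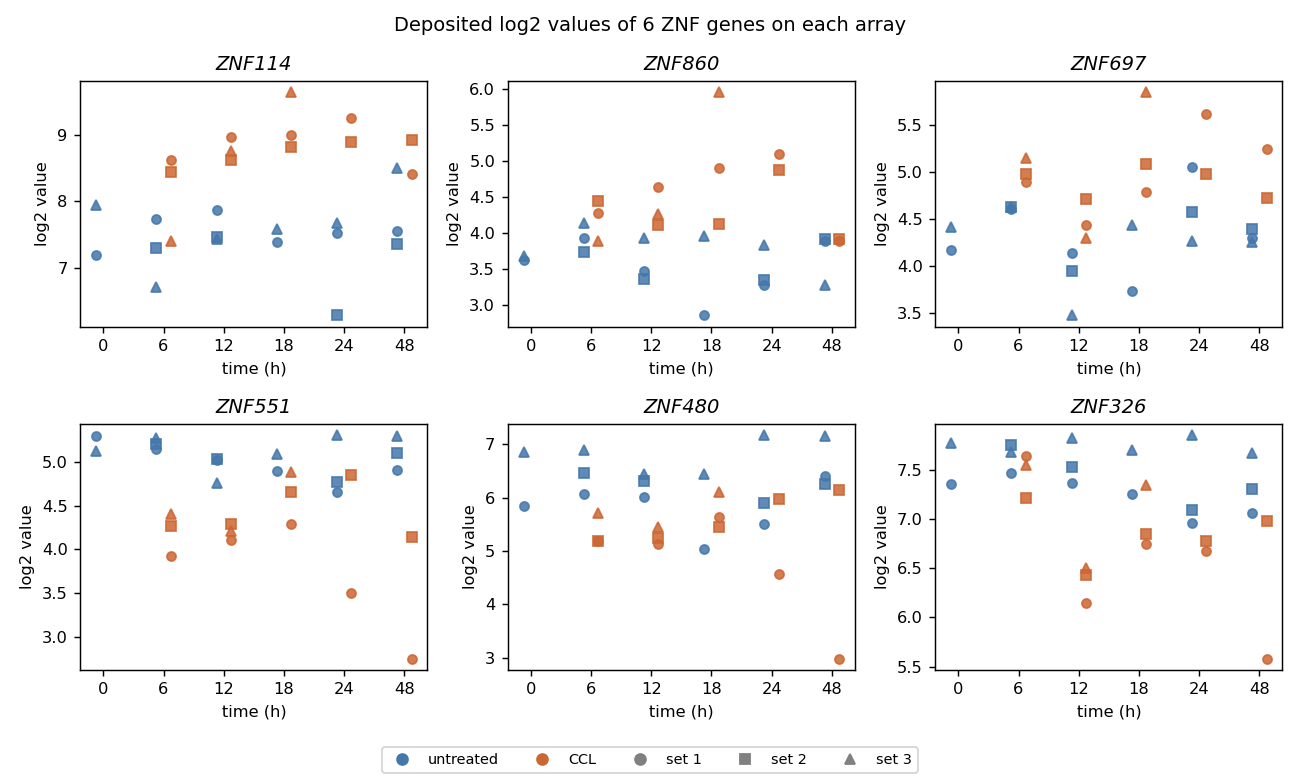
Deposited log2 values (vertical axis) of 6 ZNF genes on each of the 29 arrays by time in hours (horizontal axis), untreated in blue and CCL in orange, with the marker giving the set. ZNF114 rises to 9.65 on a CCL array at 18 h, and ZNF551, ZNF480 and ZNF326 have their lowest value, at 2.75, 2.98 and 5.58, on set 1 of CCL at 48 h.

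The rest of the genes that rose were ZNF581 and ZNF792 (both 0.52), ZNF513 (0.50), ZNF710 (0.49, with -0.03 on its other, dimmer probe set), ZNF787 (0.41), ZNF277 (0.39), ZNF143 and ZNF579 (both 0.38), ZNF593 (0.35), ZNF777 (0.33) and ZNF251 (0.32). The rest of those that fell ranged from -0.70 (ZNF326) to -0.45 (ZNF71). Among them were ZNF431, ZNF451, ZNF620, ZNF174, ZNF100, ZNF117 and ZNF649, each at -0.61 or lower. Of the 19 that rose, 17 had a difference above 0 at all 5 times, and of the 28 that fell, 14 had one below 0 at all 5 times in the deposited values. The 19 and 28 genes owe their calls to these same differences, which by itself favours a shared sign. After quantile normalization the number of all 172 genes below 0 at all times went from 15 to 45. The number above 0 at all times went from 21 to 22. That normalization also took the 18 h median of all 6529 genes from 0.41 to 0.00. Such counts were not made for all 6529 genes, so they are not offered as a trait of the ZNF genes.

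The time courses of the 172 genes resembled one another between times. Across the 172 genes, Pearson's r of the log2 differences at one time with those at another was lowest for 6 h and 18 h (0.33) and highest for 12 h and 48 h (0.78), and no array enters both times of such a pair. Genes are not independent replicates, and over all genes the same pairs gave 0.39 and 0.75. When the 5 effects of a gene were tested against each other (limma F-test), no ZNF gene and 1 of all genes (0.0153%) were called. The lowest adjusted p of a ZNF gene was 0.45. At an unadjusted p under 0.05 there were 21 ZNF genes (12.2%) and 697 of all genes (10.7%). The 3 ZNF genes with the lowest p were ZNF165 (differences -0.51, 0.36, 1.39, 1.1 and 0.31 from 6 to 48 h), ZNF43 (-0.92, -0.29, 0.48, -0.40 and -1.60) and ZNF649 (-0.29, -0.61, 0.44, -0.72 and -1.87). A change of effect with time was thus not detectable for any single ZNF gene.

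**Figure D3:**
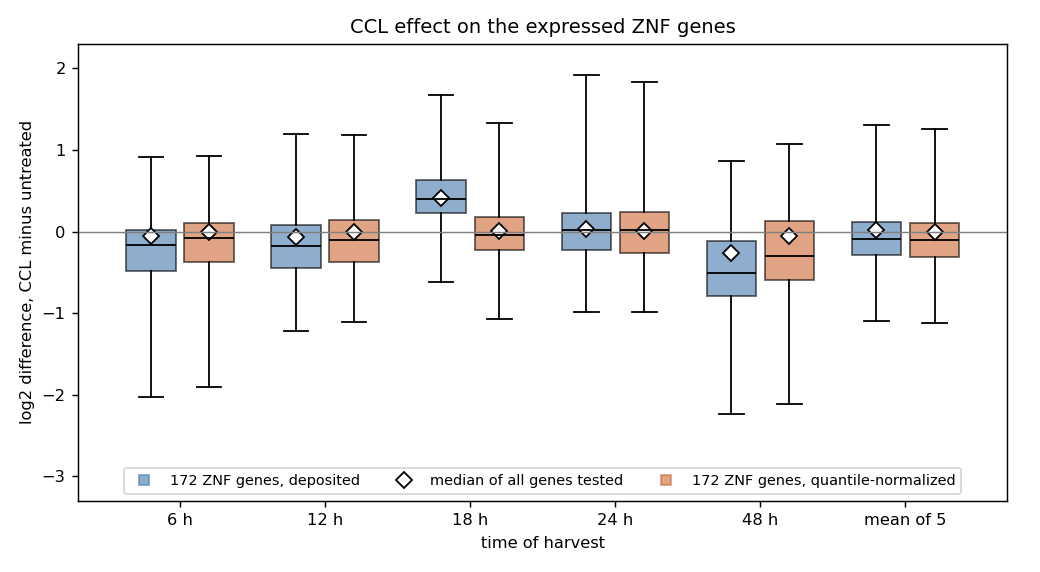
Log2 differences, CCL minus untreated (vertical axis), of the 172 ZNF genes at each time and for the mean of 5; boxes span the middle of the genes with the median as a line, whiskers reach the lowest and highest gene, and diamonds are the median of all 6529 genes. Deposited medians sit at 0.40 at 18 h and -0.51 at 48 h and move to -0.04 and -0.30 after quantile normalization.

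At 6 h no ZNF gene was called in the deposited values, against 0.306% of all genes, while 28 lay lower and 3 higher at an unadjusted p under 0.05 (16.3% and 1.74%), against 4.99% and 3.08% of all genes. With the set number as a block 5 ZNF genes were called at 6 h, against 1.65% of all genes. The 172 genes had a median difference of -0.16, against -0.06 for all genes. Of them, 46 had every CCL array below every untreated one (13.8% of all genes) and 7 the reverse (6.23%). After quantile normalization these counts were 40 and 10, against 729 and 535 of all 6529 genes. Among the 46 genes ZNF107 had the largest mean difference. It lay at 2.65, 4.93 and 4.4 with CCL (sets 1 to 3) and at 5.56, 6.27 and 6.21 without. This difference of -2.02 had an adjusted p of 0.362. ZNF451, which encodes a SUMO ligase, lay at 6.32, 7.01 and 6.63 with CCL and at 7.49, 7.86 and 8.05 without. It was the 1 ZNF gene called at 6 h after quantile normalization (difference -1.12, adjusted p = 0.0163, against 1.3% of all genes called). In the deposited values its other, dimmer probe set gave -0.05 (SE 0.29) at 6 h, against -1.15 on the one used.

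At 12 h 1 ZNF gene fell, against 1.24% of all genes called, 0.199% as lower. The same count was found after quantile normalization, against 2.24% of all genes. With the set number as a block 3 were called, against 3.94%. The called gene was ZNF326, which encodes a subunit of the DBIRD complex that links RNA polymerase II to splicing. Its values were 6.15, 6.43 and 6.50 with CCL and 7.36, 7.53 and 7.82 without, so the groups lay well apart. The difference was -1.21 ± 0.28 (SE), with an adjusted p of 0.0266 that rose to between 0.0538 and 0.192 when any 1 of the 6 arrays was left out. The median of the 172 genes was -0.18 against -0.06 for all genes, with 54 genes fully lower (21.4% of all genes) and 14 fully higher (11.8%). After quantile normalization 46 were fully lower and 23 fully higher, against 1149 and 1023 of all 6529 genes. In a fit of the 6 arrays of 12 h alone, which vary less than others, 25 ZNF genes were called, 3 higher and 22 lower, against 10.1% of all genes.

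At 18 h 19 ZNF genes rose and none fell, against 12.5% of all genes called (12.3% higher, 0.184% lower). This number moved with the scale of the arrays. All 19 stayed above 0 after quantile normalization, but 5 ZNF genes were then called, ZNF148 and ZNF860 higher and ZNF326, ZNF362 and ZNF620 lower, against 5.18% of all genes (3.43% higher, 1.75% lower). The count fell to 0 without untreated set 1 or without CCL set 3, the arrays with the lowest and the highest median, and went up to 63 without untreated set 3. With the set number as a block it was 30, against 24.1% of all genes. The 172 genes moved with all genes, with medians of 0.40 and 0.41, and 41 were fully higher (32.5% of all genes) and 3 fully lower (2.56%). After quantile normalization 25 were fully higher and 30 fully lower, against 1191 and 1158 of all 6529 genes. The medians were then -0.04 and 0.00.

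ZNF114 lay at 9.0, 8.83 and 9.65 at 18 h with CCL and at 7.39 and 7.58 (sets 1 and 3) without, a difference of 1.67 ± 0.41 (SE, adjusted p = 0.00962). The groups did not overlap, and the adjusted p was 0.0689 after quantile normalization. ZNF860 lay at 4.91, 4.12 and 5.95 against 2.86 and 3.96, a difference of 1.58 ± 0.36 (SE) that stayed called after quantile normalization (1.08, adjusted p = 0.0334). ZNF148, a regulator that binds GC-rich promoters, lay at 6.53, 6.39 and 7.22 against 3.92 and 6.39. Its call thus rested on untreated set 1. ZNF165 (1.39) and ZNF710 (1.28, with 0.61 on its other probe set) were not called after quantile normalization, with adjusted p-values of 0.0568 and 0.0597. Without untreated set 1 at 18 h their differences were 0.96 and 0.65, those of ZNF114 and ZNF860 were 1.58 and 1.03, and none of the 4 was called.

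At 24 h ZNF114 and ZNF860 rose and no ZNF gene fell, against 3.02% of all genes called (2.54% higher, 0.475% lower). ZNF114 lay at 9.25 and 8.90 with CCL and at 7.52, 6.28 and 7.68 without, a difference of 1.92 ± 0.41 (SE, adjusted p = 0.00751). ZNF860 lay at 5.09 and 4.88 with CCL and at 3.28, 3.35 and 3.84 without, a difference of 1.49 ± 0.36 (SE, adjusted p = 0.0212). In both genes the groups lay apart by about 1 or more on the log2 scale. Without CCL set 1 at 24 h the adjusted p-values were 0.192 and 0.319, and without untreated set 2 they were 0.0653 and 0.0809. ZNF860 was also not called without untreated set 1 (0.0785). After quantile normalization ZNF165, ZNF343 and ZNF516 rose as well and ZNF620 fell, against 6.89% of all genes (4.53% higher, 2.36% lower). With the set number as a block 5 ZNF genes were called, against 8.04% of all genes. The median ZNF gene lay at 0.02 and the median of all genes at 0.04, with 16 fully higher (13.9% of all genes) and 8 fully lower (5.39%). After quantile normalization 17 were fully higher and 15 fully lower, against 1015 and 789 of all 6529 genes.

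At 48 h 13 ZNF genes fell and none rose, against 6.56% of all genes called (1.33% higher, 5.22% lower). They were ZNF100, ZNF117, ZNF326, ZNF417, ZNF43, ZNF440, ZNF480, ZNF512, ZNF551, ZNF614, ZNF649, ZNF71 and ZNF8. All 13 also fell after quantile normalization, when 22 fell and 8 rose (ZNF185, ZNF513, ZNF579, ZNF581, ZNF598, ZNF697, ZNF710 and ZNF787), against 12.4% of all genes (5.18% higher, 7.23% lower). With the set number as a block 32 were called, against 13.8% of all genes. The median of the 172 genes was -0.51 against -0.26 for all genes, and -0.30 against -0.05 after quantile normalization. Of the genes, 65 were fully lower (29.5% of all genes) and 12 fully higher (10.3%). After quantile normalization 52 were fully lower and 25 fully higher, against 1432 and 1231 of all 6529 genes.

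The 48 h result rested on 1 of 2 CCL arrays. ZNF480 lay at 2.98 on set 1 and at 6.14 on set 2, against 6.41, 6.26 and 7.16 without CCL. ZNF649, a KRAB repressor, lay at 2.84 and 4.76 against 5.35, 5.58 and 6.08, and ZNF512 at 4.45 and 6.48 against 6.98, 7.08 and 7.38. ZNF551 lay at 2.75 and 4.14 against 4.91, 5.10 and 5.29. In all 4 genes both CCL arrays lay below every untreated array, but set 1 lay far below set 2.

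The fitted differences were -2.05 (SE 0.60), -1.87 (SE 0.41), -1.68 (SE 0.38) and -1.65 (SE 0.33). Without CCL set 1 they were -0.47, -0.91, -0.66 and -0.96, and none of the 172 genes was called. The median of the 172 genes at 48 h was -0.13 without CCL set 1 and -0.84 without CCL set 2. The SE is pooled over all arrays, so the gap between these 2 arrays enters it only in part. In a fit of the 48 h arrays alone no ZNF gene was called.

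A level of the ZNF genes was also taken on each array, as their median minus the median of all 6529 genes, which removes a shift common to all genes. At 6 h it was -0.81, -0.85 and -0.78 with CCL and -0.70, -0.65 and -0.59 without. At 12 h it was -0.90, -0.89 and -0.85 with CCL and -0.77, -0.72 and -0.76 without. The arms did not overlap at either time, and the same was true after quantile normalization. At 18 h the values overlapped in the deposited data (-0.73, -0.75 and -0.71 against -0.74 and -0.67) but not after quantile normalization (-0.74, -0.74 and -0.78 against -0.68 and -0.68). At 24 h 1 CCL array reached the untreated range (-0.72 and -0.77 against -0.68, -0.72 and -0.67). After quantile normalization both lay within it (-0.75 and -0.74 against -0.79, -0.75 and -0.68). At 48 h CCL set 1 lay at -0.87 and set 2 at -0.70, against -0.64, -0.67 and -0.64 without CCL. After quantile normalization these were -0.93 and -0.71 against -0.65, -0.69 and -0.64. The arms thus did not overlap at 48 h in either version, but set 2 lay close to the untreated arrays. The untreated arrays of 0 h (sets 1 and 3) lay at -0.71 and -0.63, and at -0.81 and -0.65 after quantile normalization. There set 1 of 0 h lay among the CCL arrays of 6 h (-0.77, -0.86 and -0.80). No test is given, since the genes were chosen with results of these arrays known.

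**Figure D4:**
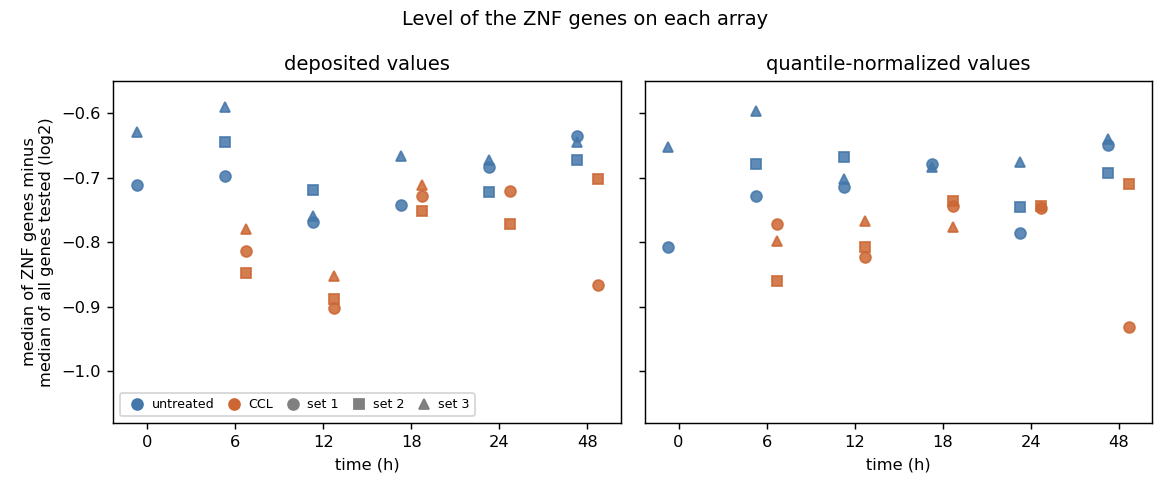
Median of the 172 ZNF genes minus the median of all 6529 genes on each array (vertical axis, log2) by time in hours, untreated in blue and CCL in orange, with the marker giving the set; deposited values on the left and quantile-normalized values on the right. CCL arrays lie below all untreated arrays of the same time at 6 h, 12 h and 48 h on both sides. CCL 48 h set 1, at -0.87 in the deposited values, lies apart from set 2, which is close to the untreated arrays.

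By chromosome, 69 of the 172 genes lie on chromosome 19 in the RefSeq annotation. Over the 5 times 5 of them rose and 13 fell (26.1%, against 24.6% of all genes called), with a median of -0.12. After quantile normalization 5 were higher and 21 lower (37.7%, against 35.4% of all genes). The 103 on other chromosomes had 14 that rose and 15 that fell (28.2%) and a median of -0.04, and 18 higher and 24 lower after quantile normalization (40.8%). The 400 other genes of chromosome 19 that were tested had 85 that rose and 18 that fell and a median of 0.12, and 105 higher and 31 lower after quantile normalization. At 48 h 10 of the 13 genes that fell were on chromosome 19, and 15 of 22 after quantile normalization, but without CCL set 1 of 48 h no ZNF gene was called there. The difference between these groups of genes was not tested.

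Neighbours did not all move alike. Following the order along chromosome 19, ZNF253 (-0.54), ZNF431 (-0.70), ZNF100 (-0.64) and ZNF43 (-0.55) come one after another among the 69 genes and all fell. The starts of ZNF253 and ZNF431 lie more than 1000000 bases apart, so these genes are not 1 run by the gap used below. The call of ZNF253 (adjusted p = 0.0492) was lost without any 1 of 20 arrays, at up to 0.181, and those of ZNF431 and ZNF43 each without either of 2 arrays, at up to 0.0726 and 0.0595. ZNF253 was above 5 on 7 untreated arrays and on no CCL array. ZNF101 before them (-0.48) was not called in the deposited values but was lower after quantile normalization (-0.52, adjusted p = 0.00948). ZNF254 after them (-0.16) was not called in either. In a run of 9 genes from ZNF649 to ZNF331, with gaps under 1000000 bases, ZNF649, ZNF614 and ZNF480 fell and the median was -0.41, with 4 genes lower after quantile normalization. In a longer run of 24 genes from ZNF579 to ZNF324, ZNF579, ZNF581 and ZNF787 rose at its start, ZNF71, ZNF551 and ZNF417 fell further along, and the median was -0.04. After quantile normalization 3 were higher and 6 lower in that run, and the call of ZNF71 was lost without any 1 of 8 arrays. ZNF114 lies between ZNF227 (-0.50), which fell, and ZNF473 among the 69 genes. On chromosome 7, ZNF107, ZNF117 (-0.62) and ZNF92 (-0.47) fell among 15 genes, and ZNF277 (0.39) and ZNF777 (0.33) rose. Of these, ZNF107, ZNF117, ZNF92 and ZNF277 lost their call without any 1 of 3, 2, 1 and 5 arrays, at adjusted p-values up to 0.108, 0.0876, 0.0502 and 0.0866.

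**Figure D5:**
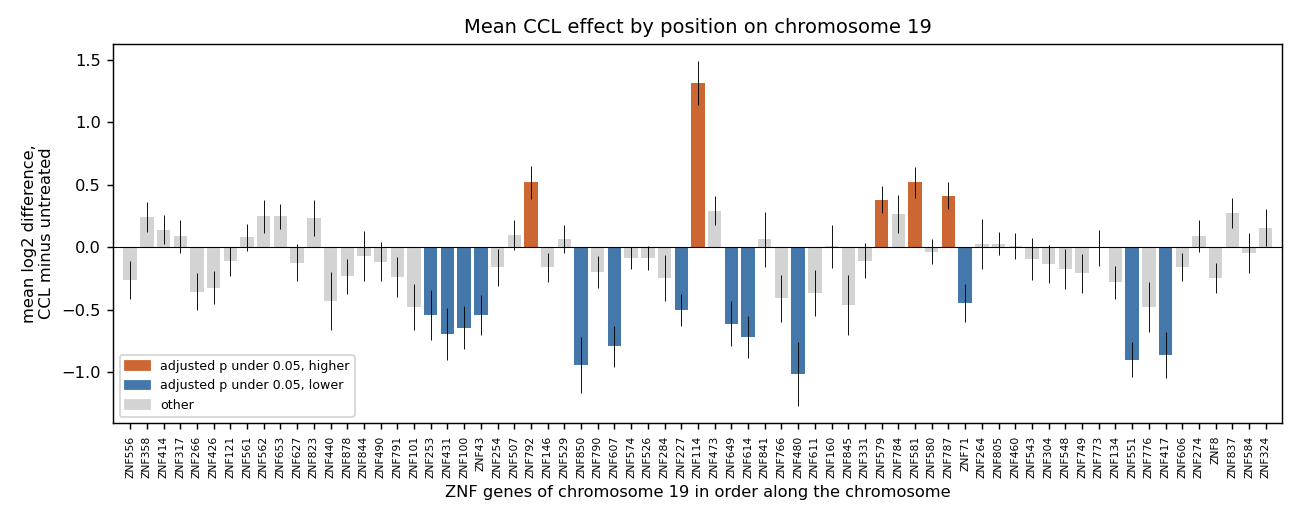
Mean of the 5 log2 differences, CCL minus untreated (vertical axis), of the 69 ZNF genes of chromosome 19 in order along the chromosome (horizontal axis, not to scale); bars are coloured by the call in the deposited values and black lines are 1 standard error. ZNF114 rises above all others at 1.31, and ZNF253, ZNF431, ZNF100 and ZNF43 stand side by side among the genes that fell, although the call of ZNF253 is lost without any 1 of 20 arrays and ZNF101 beside it is called after quantile normalization.

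The genes were also read by what their proteins are known to do, from lists made with results of these data known. Among 25 ZNF regulators of promoters, 15 were expressed, of which 3 rose and none fell over the 5 times (20%, against 24.6% of all genes called), with a median of 0.02. ZNF143, an activator bound at many promoters, rose by 0.38 ± 0.11 (SE, adjusted p = 0.0115), beside ZNF703 and ZNF516. ZNF281, a GC-box binding regulator, lay at -0.14, ZNF24 at -0.13 and ZNF410, which activates CHD4, at 0.21, none of them called. CHD4 itself, a remodeller of the NuRD complex, lay at -0.12 and was not called in the deposited values, with an adjusted p of 0.0394 after quantile normalization.

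All 12 ZNF proteins listed for RNA, ribosomes, the spindle and protein tagging were expressed. Of them 3 rose and 3 fell (50%, against 24.6% of all genes called, 13.6% higher and 11% lower). After quantile normalization 4 were higher and 6 lower (83.3% against 35.4% of all genes). With 12 genes the list gives a count only. Beside ZNF598, ZNF593, a factor of large ribosomal subunit assembly, rose by 0.35 and ZNF277 by 0.39, and each of these 2 calls was lost without any 1 of 5 arrays, at adjusted p-values up to 0.0719 and 0.0866. ZNF326 fell by 0.70 (SE 0.14, adjusted p = 0.000414). ZNF346, which binds double-stranded RNA, fell by 0.46 (SE 0.12, adjusted p = 0.00778). ZNF451 fell by 0.68 (SE 0.14) on the brighter of its 2 probe sets, while the other gave 0.09, and the mean of both was not called (adjusted p = 0.0993). ZNF638 (-0.34), ZNF106 (-0.32) and ZNF207 (-0.11), a spindle protein, were not called in the deposited values and were lower after quantile normalization, with adjusted p-values of 0.019, 0.00676 and 0.033. ZNF330 lay at 0.31 and was called there too (adjusted p = 0.0375).

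Of 13 KRAB genes with described targets, 5 were expressed and 3 of them fell (60%, against 24.6% of all genes called, 11% as lower). They were ZNF431 (-0.70), ZNF649 (-0.61) and ZNF268 (-0.58). The call of ZNF649 was lost without CCL 48 h set 1, that of ZNF431 without that array or CCL 24 h set 1, and that of ZNF268 without either of these or untreated 18 h set 3, at adjusted p-values up to 0.0817. ZNF445, which keeps imprints, lay at -0.19 and ZNF274, which recruits silencing to the ZNF genes themselves, at 0.09, neither called. With 5 genes the list gives a count only.

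TRIM28 and a wider list of chromatin and related proteins, not all of them known to act with KRAB fingers, were read on the same arrays. Of 19 expressed genes of this list, 1 rose and 5 fell (31.6%, against 24.6% of all genes called). After quantile normalization 1 was higher and 6 lower (36.8% against 35.4%). TRIM28 itself lay at -0.11 ± 0.12 (SE, adjusted p = 0.55), on arrays between 7.66 and 9.12. TRIM33, a relative of TRIM28, rose by 0.35. UHRF1, which reads methylated histones and DNA during replication, fell by 0.80 (SE 0.18), MPHOSPH8, a subunit of the HUSH silencing complex, by 0.65, ATF7IP, a partner of the methyltransferase SETDB1, by 0.52, CBX3, an HP1 protein, by 0.34 and TRIM24 by 0.32. When only 6, 12 and 24 h were averaged, TRIM33, UHRF1, MPHOSPH8, CBX3 and TRIM24 were no longer called (adjusted p between 0.0887 and 0.177). ATF7IP was lost without CCL 24 h set 1 (adjusted p = 0.0729).

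Other zinc finger families by symbol are given for scale. Over the 5 times 13.6% of all genes rose and 11% fell. Of 23 expressed ZBTB genes, 4 rose and 1 fell, with a median of -0.04, and 5 were higher and 3 lower after quantile normalization. Of 8 KLF genes, 5 rose and none fell in both versions of the values, with a median of 0.62 in the deposited ones. Of 5 ZSCAN genes 1 fell in both versions. Of 3 ZKSCAN genes 1 fell, and all 3 were lower after quantile normalization. Of 5 ZFP genes none was called, and 2 were lower after quantile normalization. The ZNF genes below the filter could be read in a fit of all 14884 named genes, where 5 of the 264 rose and 22 fell and 11.2% of all genes were called. Many of these genes sit near the lower end of the array's range, where differences are compressed.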

How the data were processed

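RNA of HepG2 cells was read on 29 arrays, 13 with CCL and 16 without, in 11 groups by arm and time. The deposited values are on the log2 scale. Per the submitters' processing notes, the authors made them with RMA in Affymetrix Expression Console 1.1. Raw intensities were not used here. Of the named probe sets (16098), the one with the highest mean stood for each of 14884 genes. Tests covered the 6529 genes with a log2 value over 5 on 2 or more arrays. All 172 ZNF genes matched RefSeq (GRCh38.p14) by gene ID, and 9 have more than 1 probe set.

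A linear model with a mean for each group was fitted in limma 3.58.1 (R 4.3.3), with two-sided p-values, Benjamini-Hochberg adjustment over the 6529 genes and a threshold of 0.05. On simulated data the mean contrast recovered 100 of 100 genes changed by 1 on the log2 scale, and the 6 h contrast 57 of 100. False calls numbered 9 and 5. The simulated noise was independent between genes and arrays, without the scale differences or set effects of the real arrays. It therefore does not show how well the fits do under those. The alternatives were quantile normalization, the set as a block, other filters and probe sets, fits of the compared arrays alone and leaving out each array. The highest correlation between 2 arrays was 0.989.

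Genes named at single times were the 4 highest and 4 lowest called differences with groups that do not overlap, and over the 5 times the 8 highest and 8 lowest. Other names come from the lists, from counts or from calls, and were then chosen after their values were seen. The members and lists were chosen with earlier results of these data known. A split by KRAB domain or number of fingers was planned and not analysed here.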

Additional observations from a re-analysis of the deposited data

How the results depend on the processing

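The 47 ZNF genes called over the 5 times numbered 43 to 68 under the scaling, block, probe set and no-filter alternatives, 27 of 83 genes with a filter at log2 6, 27 when only 6, 12 and 24 h were averaged, and 32 to 73 when 1 array was left out. Counts at single times moved more. After quantile normalization they were 1 at 6 h, 5 at 18 h, 6 at 24 h and 30 at 48 h, against 0, 19, 2 and 13 in the deposited values, and 1 of 1 at 12 h. Fits of the compared arrays alone gave 4, 25, 1, 1 and 0 from 6 to 48 h. The filter at log2 6 gave 7 at 18 h and 1 at 24 h, and no filter gave 0 at 12 h and 4 at 48 h. Leaving out 1 array gave 0 at 12 h, 0 to 63 at 18 h, 0 to 8 at 24 h and 0 to 74 at 48 h. The F-test called no ZNF gene under any of its 3 settings. The other probe set turned the sign of 2 called genes, ZNF451 (to 0.0875) and ZNF710 (to -0.0293), and of ZNF384 and ZNF770, which were not called. The cause of these changes was not tested.

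The labels do not say what a set number stands for. Residuals of same-numbered arrays correlated between -0.0657 and 0.444, above 0.1 in 9 of 12 pairs, and best with the own number in 7 of 12. All 3 pairs were above 0.1 at 6 h and at 12 h, and not all pairs were at 18 h and 24 h. With the set as a fixed replicate block the counts were 5, 3, 30, 5 and 32 from 6 to 48 h, and as a random block 4, 3, 30, 6 and 31. All 47 calls over the 5 times held with the fixed block.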
